A study of Mus musculus with 90 samples.

Results

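Metallothioneins are small cysteine-rich proteins that bind zinc and copper in the cytosol, and in the liver their main genes are Mt1 and Mt2. Free zinc is sensed by the transcription factor MTF1, which binds metal response elements in promoters and is known to activate metallothionein genes and Slc30a1, while glucocorticoids and the acute phase cytokine interleukin-6 are also known to induce metallothioneins in the liver. Transporters of the SLC30 family move metal out of the cytosol and those of the SLC39 family move it in. Described here are Mt1 and Mt2, the sensor Mtf1, the plasma membrane zinc exporter Slc30a1, the manganese exporter Slc30a10, and Slc39a14, which encodes ZIP14 and takes zinc, manganese and iron into hepatocytes. These 6 genes, of 27654 in the tables, were selected on their measured values (CPM, counts per library scaled to a common total, by diet, genotype, time point and corticosterone). Their values are therefore given as a description, with no test.

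The series holds bulk RNA-seq of 90 livers of male C57BL/6J mice, with or without the glucocorticoid receptor (GR, encoded by Nr3c1) in hepatocytes, on 2 diets or given corticosterone, in 12 h of light and 12 h of darkness. Time is given as zeitgeber time (ZT) in hours, with lights off and food given at ZT12. The time series held 78 livers at 6 time points 4 h apart, the diet comparison 6 livers at ZT12 and the corticosterone experiment 6 livers at ZT12. Depth ranged from 14235473 to 20788575 counts per library on caloric restriction and from 10057544 to 17089004 on control diet in the time series, from 36442195 to 39492146 in the diet comparison and from 13739631 to 16077943 in the corticosterone experiment.

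In the time series, mice labelled WT were GRfl/fl without Cre and mice labelled GRLKO were GRfl/fl x Alb-Cre, in which the albumin promoter drives Cre in hepatocytes, so that other liver cells keep the receptor. Both genotypes carried the floxed allele. Caloric restriction ended at 40% less food, reached in weekly steps of 10% in mice that were 12 weeks old at the start and 20 to 21 weeks old at the end, with 3 livers per genotype and time point. The control diet was chow with food at night only for the last 1 week, with 3 livers per genotype at ZT0 and ZT4, 4 at ZT8 and ZT12, and 4 WT and 3 GRLKO livers at ZT16 and ZT20. In the diet comparison, mice labelled WT were on caloric restriction (3) or control diet (3); the control group carries AL in its title and night-restricted feeding as its treatment. The corticosterone experiment set WT mice given corticosterone (3) against WT mice labelled with night-restricted feeding alone (3); the study's methods give 5 mg/kg of corticosterone intraperitoneally at ZT11 daily for 7 days, vehicle injections in the controls, and mice of 12 weeks at the start of 2 weeks of handling. The main text of the study places the injections at ZT12 instead, so that the time from the last dose to the ZT12 livers is not known here. All groups were on the C57BL/6J background. The labels name no batch, but the 2 diets of the time series lie in separate count tables and carry separate series of library numbers. They are taken here as separate library batches, so that diet and batch cannot be told apart there. CPM were scaled separately in each of the 4 count tables, by TMM, and where groups that did not overlap do so with library size as the only scaling, this is said beside them.

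Nr3c1 was measured first, as a check of the genotype labels. It ranged from 70.1 to 118 CPM in the 40 WT livers of the time series and from 16.2 to 32.1 CPM in the 38 GRLKO livers, and the genotypes did not overlap at any time point on either diet. At ZT12, Nr3c1 was 103, 98.0 and 103 CPM in WT and 30.9, 32.1 and 30.6 CPM in GRLKO on caloric restriction, and it fell by 1.70 on the log2 scale (SE 0.07, edgeR quasi-likelihood test with Benjamini-Hochberg adjusted p = 8.33e-05, lower in 3 of 3 livers). On control diet at ZT12 it was 83.7, 89.0, 76.1 and 88.9 CPM in WT against 18.8, 20.8, 20.3 and 25.1 CPM in GRLKO, and fell by 1.98 (SE 0.10, edgeR quasi-likelihood test with Benjamini-Hochberg adjusted p = 5.05e-05, lower in 4 of 4 livers). Counts were summed over the whole gene, so that transcript from other liver cells and transcript of the floxed allele after recombination cannot be told apart. In the diet comparison Nr3c1 was 88.7, 90.3 and 95.7 CPM on control diet and 84.3, 88.4 and 86.6 CPM on caloric restriction, and in the corticosterone experiment it was 74.1, 77.4 and 69.4 CPM in controls and 61.7, 83.8 and 65.9 CPM with corticosterone.

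The tissue label was checked against 7 hepatocyte markers, whose summed level lay between 60946 and 161235 CPM, with Alb the most abundant in 90 of 90 libraries and no marker at 0 in any. Some libraries stand apart. Exocrine pancreas transcripts summed to 784 CPM in replicate 3 of WT on caloric restriction at ZT12 (most abundant Ctrb1) and to 397 CPM in replicate 2 of WT on control diet at ZT16 (most abundant Cela2a), where the next highest library held 2.51 CPM. Replicate 2 of WT on caloric restriction at ZT8 held far more Mt1 and Mt2 than the other 2 livers of its group. Where the genotypes did not overlap in a group with such a library, values are also given without it.

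Mt1, at chr8:94179082-94180327 (mm10, plus strand), had its highest group mean of the time series in WT livers on caloric restriction at ZT12. There it was 58.3, 45.7 and 79.6 CPM in WT, against 8.05, 8.06 and 4.21 CPM in GRLKO. All 3 GRLKO livers lay below all 3 WT livers, and the mean of WT (61.2 ± 17.2 CPM, SD, n = 3) was 9.03-fold that of GRLKO (6.77 ± 2.22), a log2 difference of -3.18 (SE 0.29). In bulk tissue, fewer cells that express a gene and less RNA of it per cell cannot be told apart. Without the WT library that held pancreas transcripts, the mean of the other 2 WT livers was 52.0 CPM, 7.67-fold that of GRLKO, and the groups stayed apart.

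Mt2, which lies on the same strand at chr8:94172664-94173568 (mm10), 5513 bases before Mt1, was 39.3, 20.8 and 34.7 CPM in WT and 2.703, 0.676 and 2.14 CPM in GRLKO at the same time and diet. Here too every GRLKO liver lay below every WT liver. The mean was 31.6 ± 9.65 CPM in WT and 1.84 ± 1.05 CPM in GRLKO, a 17.2-fold ratio and a log2 difference of -4.11 (SE 0.43). Leaving out the library with pancreas transcripts gave a WT mean of 30.0 CPM and a ratio of 16.3. Both genes could share reads if their transcripts shared sequence, but no stretch of 31 bases was common to the 3 annotated transcripts of Mt1 and the 2 of Mt2 (longest shared stretch 20 bases).

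At ZT8 on caloric restriction Mt1 was 15.1, 117 and 20.6 CPM in WT and 18.8, 7.12 and 17.2 CPM in GRLKO. Mt2 at ZT8 was 1.97, 31.2 and 3.90 CPM in WT and 1.72, 0.738 and 1.97 CPM in GRLKO. One WT liver thus held most of the transcript of both genes, the genotypes overlapped for Mt1, and for Mt2 the lowest WT and the highest GRLKO liver were nearly equal and overlapped with library size as the only scaling. Without that liver the WT mean of Mt1 was 17.9 CPM, 1.24-fold that of GRLKO, and that of Mt2 was 2.94 CPM, 1.99-fold that of GRLKO. At ZT16 Mt1 was 17.6, 10.6 and 5.72 CPM in WT and 1.39, 3.08 and 2.08 CPM in GRLKO. Mt2 was 6.77, 5.39 and 1.47 CPM in WT and 0.463, 1.36 and 0.5683 CPM in GRLKO. Both genes were lower in every GRLKO liver at ZT16, with WT means 5.18-fold (Mt1) and 5.70-fold (Mt2) those of GRLKO. The ratio of Mt2 would be larger without GRLKO replicate 2 (1.36 CPM). At that time the summed hepatocyte markers lay between 130660 and 138355 CPM in WT and between 95957 and 124810 CPM in GRLKO, and the lymphocyte markers between 1.47 and 2.23 CPM and between 2.25 and 4.28 CPM, so that both lists were apart too.

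At the other 3 time points on caloric restriction the genotypes overlapped for both metallothioneins. At ZT0 Mt1 was 10.2, 22.1 and 11.7 CPM in WT and 12.1, 13.1 and 9.64 CPM in GRLKO. Mt2 was 2.44, 5.81 and 2.88 CPM in WT and 2.46, 1.97 and 2.20 CPM in GRLKO. The same WT liver was the highest for both genes at ZT0. At ZT4 Mt1 was 12.5, 6.47 and 7.64 CPM in WT and 13.3, 11.9 and 9.22 CPM in GRLKO. Mt2 was 4.33, 1.66 and 1.117 CPM in WT and 1.34, 1.73 and 0.912 CPM in GRLKO. At ZT4 the highest value of Mt1 was in a GRLKO liver and that of Mt2 in a WT liver. At ZT20 Mt1 was 6.24, 3.85 and 3.88 CPM in WT and 6.29, 1.53 and 1.53 CPM in GRLKO. Mt2 was 3.36, 0.947 and 1.51 CPM in WT and 2.20, 0.294 and 0.576 CPM in GRLKO. The mean of Mt1 at ZT4 was the only one of the 6 on caloric restriction that was higher in GRLKO (11.5 ± 2.08 against 8.87 ± 3.19 CPM). Averaged over the 6 time points in one model, the log2 difference between GRLKO and WT was -1.31 (SE 0.25) for Mt1 and -2.02 (SE 0.33) for Mt2.

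The order of the WT means of Mt1 over the day on caloric restriction was ZT12 (61.2 CPM), ZT8 (50.9), ZT0 (14.7), ZT16 (11.3), ZT4 (8.87) and ZT20 (4.65), a 13.1-fold range. ZT12 lay above every liver of ZT0, ZT4, ZT16 and ZT20, whereas ZT8 overlapped with ZT12 through a single liver, ZT0, ZT4 and ZT16 overlapped with each other, and ZT20 lay below every liver of ZT0 and ZT4. Mt2 ran from 31.6 CPM at ZT12 to 1.94 CPM at ZT20 in WT, a 16.3-fold range that would be wider without ZT20 replicate 1 (3.36 CPM). In GRLKO on caloric restriction the highest mean of Mt1 stood at ZT8 (14.4 ± 6.33 CPM) and the lowest at ZT16 (2.18 ± 0.848), a 6.58-fold range, and Mt2 ranged 2.77-fold, from 2.21 CPM at ZT0 to 0.797 CPM at ZT16.

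**Figure D1:**
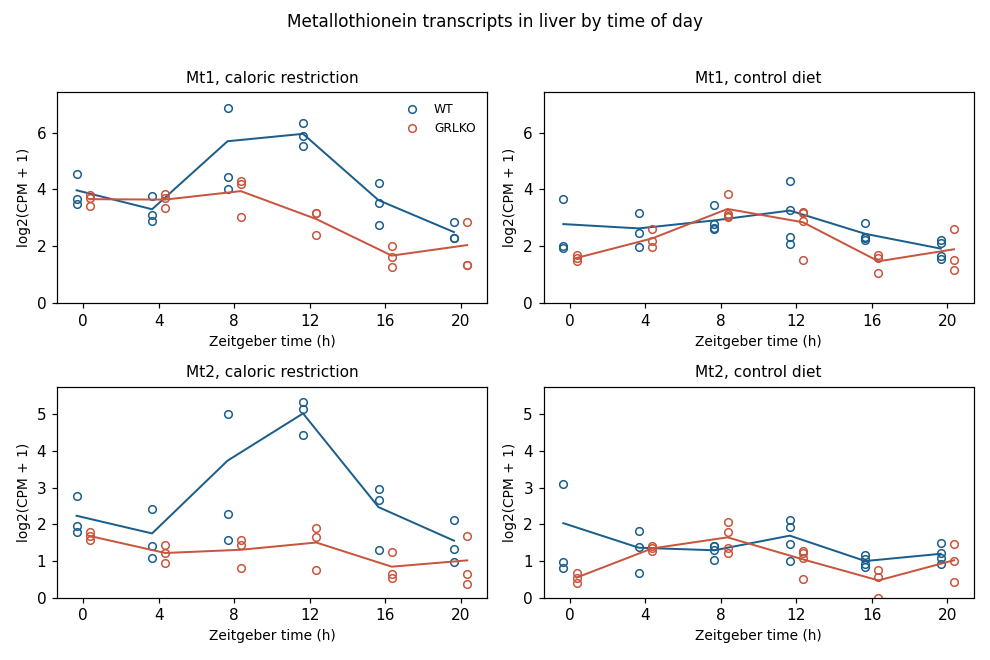
Levels of Mt1 (upper panels) and Mt2 (lower panels) in each liver of the time series, as log2(CPM + 1) on the vertical axis against zeitgeber time in hours, on caloric restriction (left) and control diet (right). Circles are single livers, lines join the group means, and the WT livers on caloric restriction stand highest at ZT12 (means 61.2 CPM for Mt1 and 31.6 CPM for Mt2), with 1 WT liver at ZT8 at 117 CPM of Mt1.

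On control diet in the time series, Mt1 at ZT12 was lower in WT than on caloric restriction, and less separated between the genotypes. These diets lie in tables normalized separately, and diet and library batch cannot be told apart. In the diet comparison the WT means of Mt1 were in the other order, with overlap. In the time series on control diet Mt1 was 8.58, 3.96, 3.19 and 18.5 CPM in WT and 6.41, 1.89, 8.33 and 8.11 CPM in GRLKO at ZT12. Mt2 at that time was 2.83, 0.989, 1.76 and 3.35 CPM in WT and 1.31, 0.426, 1.11 and 1.41 CPM in GRLKO. The genotypes overlapped for both genes, and the log2 differences were -0.47 (SE 0.60) and -1.06 (SE 0.46). That of Mt1 rests on WT replicate 4 (18.5 CPM): without it the Mt1 log2 fold change, GR loss, control diet, ZT12, was 0.24, of the other sign. The difference between the genotype effects on the 2 diets at ZT12 (caloric restriction minus control diet) was -2.69 (SE 0.78) for Mt1 and -3.03 (SE 0.69) for Mt2 on the log2 scale, and the Mt1 log2 fold change, GR loss by diet interaction, ZT12, was -3.42 without that liver. Diet and library batch cannot be told apart in this difference either.

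Mt1 at ZT0 on control diet was 2.84, 3.03 and 11.8 CPM in WT and 1.99, 1.78 and 2.25 CPM in GRLKO. Mt2 was 0.977, 0.757 and 7.55 CPM in WT and 0.460, 0.594 and 0.330 CPM in GRLKO. All GRLKO livers lay below all WT livers for both genes, and a single WT liver set the size of the ratios of means, 2.93 for Mt1 and 6.70 for Mt2. In these livers lymphocyte markers summed to between 15.6 and 27.2 CPM in WT and between 44.7 and 110 CPM in GRLKO, and adipocyte markers to between 35.6 and 50.5 CPM and between 60.4 and 65.4 CPM, both without overlap. The most abundant adipocyte marker was Pnpla2 in 90 of 90 libraries. Hepatocyte markers had mean sums of 87630 and 70760 CPM, with overlap. At ZT16 Mt1 was 3.91, 6.10, 4.05 and 3.61 CPM in WT and 1.97, 2.24 and 1.10 CPM in GRLKO. Mt2 was 0.795, 1.22, 0.901 and 1.083 CPM in WT and 0.680, 0.480 and 0 CPM in GRLKO. These groups did not overlap either, with means 2.49-fold (Mt1) and 2.59-fold (Mt2) higher in WT, and the count of 0 allows up to 0.237 CPM in that library (3 counts, counting error only). The ratio of Mt2 rests on few reads, and would be larger without GRLKO replicate 1 and smaller without GRLKO replicate 3. Without the WT library with pancreas transcripts the ratios were 2.18 and 2.40. Hepatocyte markers were apart at ZT16 as well (80830 to 90308 CPM in WT, 65709 to 78190 CPM in GRLKO), as were lymphocyte markers (5.41 to 9.76 CPM and 10.3 to 58.6 CPM).

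At the remaining times on control diet the 2 genes overlapped between the genotypes. Mt1 was 2.95, 4.52 and 8.10 CPM in WT and 5.08, 2.94 and 3.498 CPM in GRLKO at ZT4, and 3.33, 2.14, 1.93 and 3.72 CPM in WT and 5.03, 1.90 and 1.23 CPM in GRLKO at ZT20. At ZT8 it was 5.82, 5.19, 5.11 and 9.96 CPM in WT and 7.35, 7.20, 7.86 and 13.4 CPM in GRLKO, with a higher mean of Mt1 in GRLKO (8.94 ± 2.96 against 6.52 ± 2.31 CPM, SD, n = 4 each). The mean of Mt2 at ZT8 was higher in GRLKO as well (2.13 against 1.45 CPM). Mt2 stayed between 0.606 and 2.52 CPM in WT and between 0.351 and 3.16 CPM in GRLKO over ZT4, ZT8 and ZT20. Averaged over the 6 time points, the log2 difference was -0.55 (SE 0.22) for Mt1 and -0.82 (SE 0.26) for Mt2. Both rest in part on replicate 3: without it the Mt1 log2 fold change, GR loss, control diet, mean of 6 time points, was -0.32 and the Mt2 log2 fold change, GR loss, control diet, mean of 6 time points, was -0.26. Without replicate 1 that of Mt1 was -0.84. The WT means ranged 3.08-fold over the day for Mt1 (8.56 CPM at ZT12 to 2.78 at ZT20) and 3.09-fold for Mt2 (3.09 CPM at ZT0 to 1.00 at ZT16), less than the spread within some groups. Each highest mean rests on a single liver, replicate 4 at ZT12 for Mt1 (18.5 CPM) and replicate 3 at ZT0 for Mt2 (7.55 CPM). The other livers at ZT0 held 0.977 and 0.757 CPM of Mt2, below its ZT16 mean. Without these single livers neither time would hold the highest mean.

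Livers given corticosterone held the highest levels of both metallothioneins of all groups, in a table normalized on its own. Mt1 was 352, 654 and 346 CPM with corticosterone and 4.30, 3.73 and 1.17 CPM in controls. Mt2 was 349, 683 and 356 CPM with corticosterone and 1.36, 1.31 and 0.275 CPM in controls. No treated liver came near any control liver: the ratio of means was 147 for Mt1 (log2 difference 7.19, SE 0.50) and 472 for Mt2 (8.86, SE 0.52). The ratio of Mt2 rests on few reads in the controls. Adipocyte markers (mean sums of 96.9 and 44.5 CPM) and neutrophil markers (1.70 and 0.393 CPM) were higher in every treated liver and endothelial markers lower (84.9 and 106 CPM). Pnpla2 was the most abundant adipocyte marker in 90 of 90 libraries, so that the adipocyte sum can follow a single gene. The neutrophil sums rest on few reads. Of 5 neutrophil markers 1 passed the filter on low counts with corticosterone, and 0 were called.

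In the diet comparison Mt1 was 96.9, 100.5 and 29.4 CPM on control diet and 46.1, 63.0 and 42.2 CPM on caloric restriction. Mt2 was 46.2, 54.9 and 13.0 CPM on control diet and 19.0, 21.4 and 10.8 CPM on caloric restriction. The groups overlapped for both genes, because 1 control liver was low, and the log2 differences were -0.58 (SE 0.42) and -1.16 (SE 0.50). Without that liver (control replicate 3) the groups did not overlap for either gene, and the log2 differences were -0.97 and -1.56; without either of the other 2 control livers that of Mt1 was -0.37 or -0.33. With the ZT12 WT livers of the time series, the Mt1 log2 fold change, diet effect, WT, ZT12, was 2.83 and the Mt2 log2 fold change, diet effect, WT, ZT12, was 3.82, of opposite sign, where diet and library batch cannot be told apart. WT livers at ZT12 on control diet thus had mean Mt1 levels of 75.6 CPM in the diet comparison, 8.56 CPM in the time series and 3.07 CPM in the corticosterone experiment, which are tables normalized separately, while those on caloric restriction had 50.4 CPM and 61.2 CPM. What sets the control livers of the 3 experiments apart was not tested.

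Mtf1, at chr4:124802104-124849800 (mm10, plus strand), encodes the zinc sensor that activates metallothionein genes. Its highest mean of the day was 1.82-fold the lowest in WT and 1.85-fold in GRLKO on caloric restriction, and 1.302-fold and 1.311-fold on control diet. Over all 12 groups of the time series on control diet its group means lay between 14.2 and 20.8 CPM, and on caloric restriction between 11.2 and 25.9 CPM. The highest were the WT livers on caloric restriction at ZT16, at 23.7, 23.1 and 30.8 CPM, against 20.3, 21.9 and 19.6 CPM in GRLKO. These groups did not overlap (1.26-fold), and neither did those at ZT0 on caloric restriction (12.6 to 16 CPM in WT against 9.97 to 12.5 CPM in GRLKO, 1.27-fold). Both separations end with library size as the only scaling, where the lowest WT liver held 22.62 CPM against 22.68 CPM in the highest GRLKO liver at ZT16, and 12.82 against 13.28 CPM at ZT0. At ZT12, where the metallothioneins differed most, Mtf1 was 15.6, 20.6 and 17.9 CPM in WT and 15.6, 14.2 and 16.3 CPM in GRLKO, with overlap and a log2 difference of -0.23 (SE 0.12). With library size as the only scaling the Mtf1 log2 fold change, GR loss, caloric restriction, ZT12, was -0.07, and without WT replicate 2 it was -0.13. At ZT8 on caloric restriction the mean was slightly higher in GRLKO (15.4 against 15.2 CPM), with overlap.

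On control diet Mtf1 was apart between the genotypes at ZT20 alone, with 17.7, 19.1, 20.7 and 19.3 CPM in WT and 13.9, 15.7 and 17.1 CPM in GRLKO (1.23-fold), and with library size as the only scaling it overlapped there as well (16.78 CPM in the lowest WT and 16.84 CPM in the highest GRLKO liver). At ZT12 it was 16.9, 18.2, 17.6 and 16.03 CPM in WT and 16.9, 17.4, 15.9 and 18.1 CPM in GRLKO, a log2 difference of -0.01 (SE 0.08) that became 0.09 when library size was the only scaling. The mean difference over the 6 time points was -0.20 (SE 0.06) on caloric restriction and -0.16 (SE 0.05) on control diet. With library size as the only scaling the Mtf1 log2 fold change, GR loss, caloric restriction, mean of 6 time points, was -0.12 and the Mtf1 log2 fold change, GR loss, control diet, mean of 6 time points, was -0.11. Corticosterone gave 19.0, 14.8 and 20.8 CPM against 19.7, 16.7 and 18.9 CPM in controls, and caloric restriction 15.6, 16.1 and 17.2 CPM against 15.2, 15.9 and 18.02 CPM on control diet. Both contrasts overlapped, at -0.02 (SE 0.15) and -0.01 (SE 0.09) on the log2 scale.

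Slc30a1, at chr1:191906767-191913247 (mm10, plus strand), encodes the exporter that lowers cytosolic zinc. On caloric restriction at ZT12 it was 43.6, 44.0 and 49.4 CPM in WT and 39.2, 26.7 and 35.9 CPM in GRLKO, and at ZT16 it was 49.3, 50.4 and 59.7 CPM in WT and 38.3, 40.8 and 35.9 CPM in GRLKO. The genotypes did not overlap at either time, with means 1.35-fold and 1.39-fold higher in WT. The separation at ZT12 ends with library size as the only scaling, which gave 38.22, 37.76 and 42.38 CPM in WT and 38.71, 24.65 and 35.07 CPM in GRLKO. Without the library with pancreas transcripts the ratio at ZT12 was 1.29. At ZT0 Slc30a1 was 35.2, 29.97 and 30.2 CPM in WT and 31.5, 32.6 and 36.5 CPM in GRLKO, the only time on caloric restriction with a higher mean in GRLKO, and ZT4, ZT8 and ZT20 overlapped as well.

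On control diet Slc30a1 was 65.5, 59.95, 49.8 and 63.2 CPM in WT and 47.0, 41.4 and 44.9 CPM in GRLKO at ZT16. At ZT20 it was 47.8, 48.3, 62.5 and 38.3 CPM in WT and 33.8, 34.3 and 33.8 CPM in GRLKO. Both times were without overlap (1.34-fold and 1.45-fold, and at ZT16 also 1.34-fold without the library with pancreas transcripts). At ZT20 the groups overlapped with library size as the only scaling (39.0 CPM in the lowest WT and 39.1 CPM in the highest GRLKO liver), and ZT12 overlapped at 46.2, 48.6, 38.4 and 34.8 CPM in WT and 38.8, 33.8, 34.2 and 43.7 CPM in GRLKO. The highest WT mean over the day stood at ZT16 on both diets (53.1 and 59.6 CPM) and the lowest at ZT0 (31.8 and 35.4 CPM). Averaged over the time points the log2 difference between genotypes was -0.27 (SE 0.07) on caloric restriction and -0.24 (SE 0.06) on control diet.

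Neither diet nor corticosterone separated Slc30a1 at ZT12. It was 42.2, 35.9 and 47.4 CPM on control diet and 34.4, 44.6 and 39.1 CPM on caloric restriction (log2 difference -0.09, SE 0.13). Corticosterone livers held 35.9, 46.3 and 43.7 CPM and their controls 53.3, 48.9 and 38.3 CPM (-0.16, SE 0.15). In the corticosterone experiment Mt1 thus stood 147-fold apart while the exporter overlapped.

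Slc30a10, at chr1:185454848-185468762 (mm10, plus strand), exports manganese from hepatocytes, and loss of its function is known to raise manganese in liver and brain. On caloric restriction at ZT16 it was 52.6, 45.1 and 39.1 CPM in WT and 29.7, 27.1 and 24.8 CPM in GRLKO, apart in every liver and 1.67-fold higher in WT. At ZT12 it was 1.19, 11.01 and 5.16 CPM in WT and 0, 9.30 and 0 CPM in GRLKO. Here the genotypes overlapped and the livers of 1 group differed widely, so that the log2 difference of -0.90 carried an SE of 1.49. The counts of 0 allow up to 0.173 and 0.183 CPM in those 2 libraries. Without GRLKO replicate 2, which held the 9.30 CPM, all GRLKO counts are 0 and no fold is given. Without WT replicate 2 (11.01 CPM) the Slc30a10 log2 fold change, GR loss, caloric restriction, ZT12, was -0.05, and with the replicate number as a block it was -2.54.

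At ZT8 on caloric restriction Slc30a10 was 1.86, 11.2 and 8.56 CPM in WT and 1.76, 3.01 and 8.51 CPM in GRLKO. At ZT20 it was 30.3, 27.5 and 44.7 CPM in WT and 16.2, 26.9 and 34.2 CPM in GRLKO. The genotypes overlapped at both times, as they did at ZT0 (means 24.2 and 19.0 CPM) and ZT4 (19.5 and 12.8 CPM), and the mean of WT was the higher at all 6 times. WT means thus ran from 5.79 CPM at ZT12 to 45.6 CPM at ZT16, 7.88-fold, and GRLKO means from 3.10 to 27.2 CPM between the same times. The GRLKO mean at ZT12 is 1 liver at 9.30 CPM and 2 at 0 CPM, and without that liver it is 0, so that no fold over the day is given. The WT fold was 14.4 without ZT12 replicate 2. Both libraries were left out after seeing the data.

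On control diet Slc30a10 at ZT0 was 50.4, 57.8 and 52.1 CPM in WT and 41.3, 39.2 and 42.8 CPM in GRLKO. At ZT16 it was 42.2, 39.9, 28.1 and 31.9 CPM in WT and 23.1, 27.1 and 25.1 CPM in GRLKO. WT and GRLKO did not overlap at either time (1.42-fold at ZT16, 1.36-fold without the library with pancreas transcripts), though the lowest WT and the highest GRLKO liver at ZT16 were close. At ZT12 it was 10.4, 16.4, 17.1 and 9.33 CPM in WT and 12.8, 14.2, 14.7 and 4.76 CPM in GRLKO, with overlap. Groups overlapped at ZT4 (means of 45.7 CPM in WT and 33.7 CPM in GRLKO), at ZT20, and at ZT8, where the mean was the higher in GRLKO (19.1 against 15.3 CPM). The WT mean ran from 13.3 CPM at ZT12 to 54.3 CPM at ZT20 (4.08-fold; with library size as the only scaling the highest mean was at ZT0) and the GRLKO mean from 11.6 to 42.1 CPM (3.63-fold), and ZT8 and ZT12 were the 2 lowest times in each genotype on each diet. Over the 6 time points the log2 difference was -0.62 (SE 0.30) on caloric restriction and -0.26 (SE 0.12) on control diet. Without replicate 2 the Slc30a10 log2 fold change, GR loss, caloric restriction, mean of 6 time points, was -1.90.

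Corticosterone set Slc30a10 apart in the direction opposite to the metallothioneins. It was 15.5, 19.8 and 20.9 CPM in treated livers and 32.9, 46.2 and 47.2 CPM in controls, and every treated liver was lower. The mean was 2.25-fold lower with corticosterone (log2 difference -1.17, SE 0.18). In the diet comparison it was 9.87, 10.7 and 14.8 CPM on control diet and 8.54, 9.48 and 16.8 CPM on caloric restriction, with overlap (-0.02, SE 0.28). As with Mt1, the ZT12 control livers of the experiments differed, with means of 11.8 CPM in the diet comparison, 13.3 CPM in the time series and 42.1 CPM in the corticosterone experiment, in tables normalized separately.

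Slc39a14, at chr14:70303469-70351425 (mm10, minus strand), encodes the importer ZIP14, a known target of interleukin-6 in hepatocytes. On caloric restriction at ZT12 it was 299.7, 310.4 and 343 CPM in WT and 221, 218 and 194 CPM in GRLKO, and at ZT8 it was 248, 309 and 265 CPM in WT and 193, 177 and 177 CPM in GRLKO. Every GRLKO liver was lower at both times, with WT means 1.51-fold and 1.503-fold higher (1.45-fold at ZT12 without the library with pancreas transcripts, 1.41-fold at ZT8 without the liver with high Mt1). It was apart at ZT0 as well (136, 171 and 127 CPM against 124, 124 and 110.5 CPM) and at ZT20 (199.7, 155 and 161 CPM against 120.1, 136 and 151.5 CPM). These 2 separations end with library size as the only scaling, which gave 138.7, 174.4 and 126.1 CPM against 132.6, 133.5 and 120.8 CPM at ZT0 and 195.3, 146.5 and 157.7 CPM against 130.5, 133.7 and 149 CPM at ZT20. At ZT16 the order of the means was the other way, with 153, 211 and 181 CPM in WT and 181, 183 and 209.6 CPM in GRLKO, and the groups overlapped, as at ZT4.

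On control diet at ZT12 Slc39a14 was 199.7, 214, 297 and 389.8 CPM in WT and 197, 192, 201 and 186 CPM in GRLKO. The WT livers were spread widely and the lowest of them lay among the GRLKO livers, with a log2 difference of -0.50 (SE 0.19). Without WT replicate 4 the Slc39a14 log2 fold change, GR loss, control diet, ZT12, was -0.28. ZT4 was the one time on control diet without overlap (164, 168 and 154.5 CPM in WT against 141, 151 and 136 CPM in GRLKO, 1.14-fold), and there too the groups overlapped with library size as the only scaling (165.4, 166.6 and 148.9 CPM against 147.5, 158.8 and 143.3 CPM). The highest mean of the day was at ZT12 and the lowest at ZT0 in each genotype on each diet, except that with library size as the only scaling WT on caloric restriction was highest at ZT8, with WT means of 318 and 145 CPM on caloric restriction (2.19-fold) and 275 and 145 CPM on control diet (1.90-fold). Averaged over the time points the log2 difference was -0.32 (SE 0.05) on caloric restriction and -0.24 (SE 0.05) on control diet.

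Livers given corticosterone held 345, 513 and 400.3 CPM of Slc39a14 and their controls 176, 158 and 125.5 CPM. No treated liver overlapped with a control, and the mean was 2.74-fold higher (log2 difference 1.45, SE 0.18). The diet comparison gave 305, 331 and 328 CPM on control diet and 304, 373 and 323 CPM on caloric restriction, which overlapped (log2 difference 0.05, SE 0.09, and -0.07 with library size as the only scaling).

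**Figure D2:**
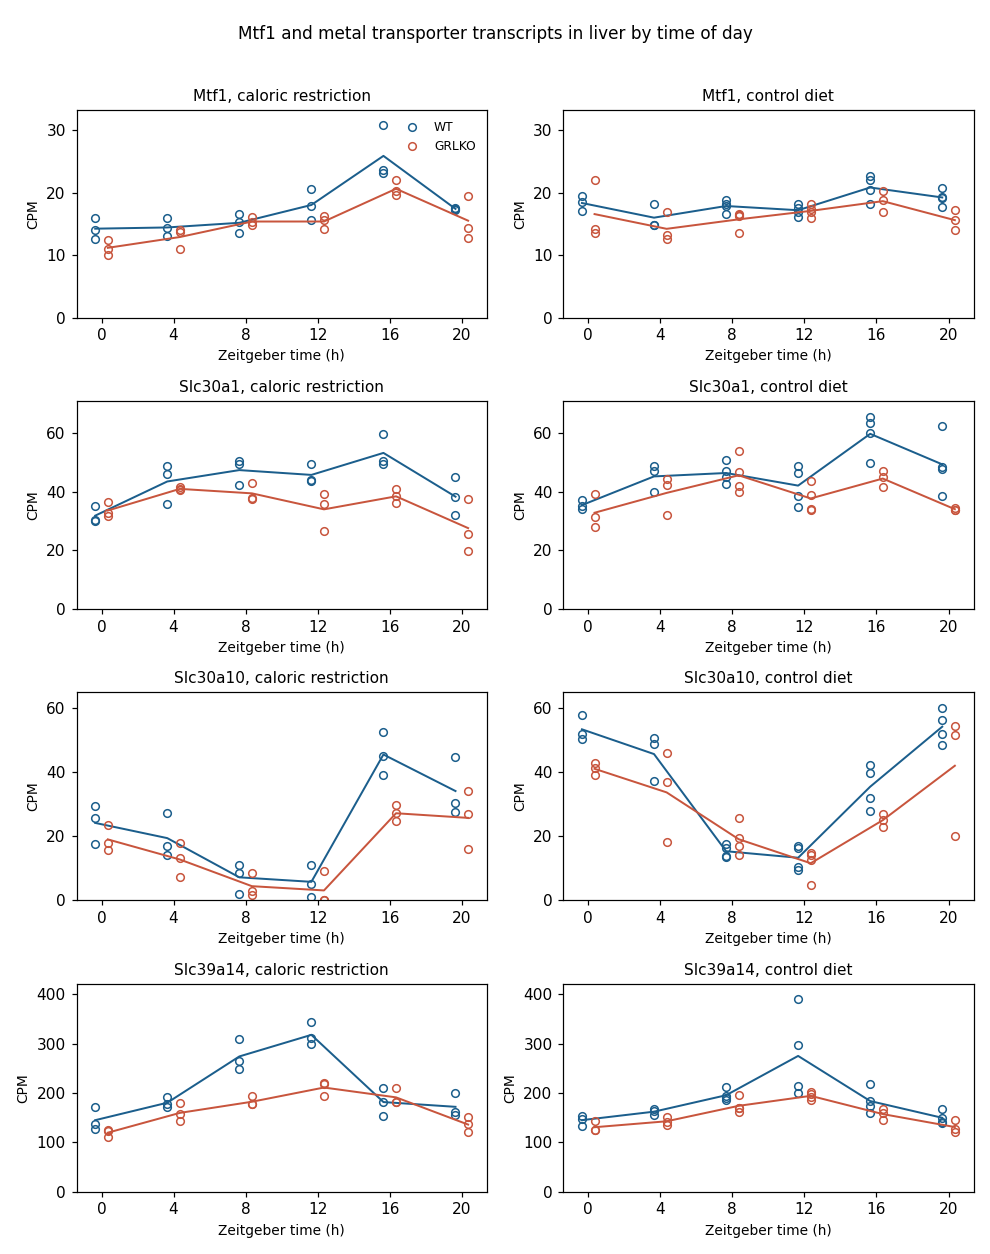
Levels of Mtf1, Slc30a1, Slc30a10 and Slc39a14 (top to bottom) in each liver of the time series, in CPM on a linear vertical axis that starts at 0, against zeitgeber time in hours, on caloric restriction (left) and control diet (right). Circles are single livers and lines join the group means; Slc30a10 is lowest at ZT12, with WT means of 5.79 CPM (left) and 13.3 CPM (right), and Slc39a14 is highest there, at 318 and 275 CPM (on the left at ZT8 with library size as the only scaling).

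**Figure D3:**
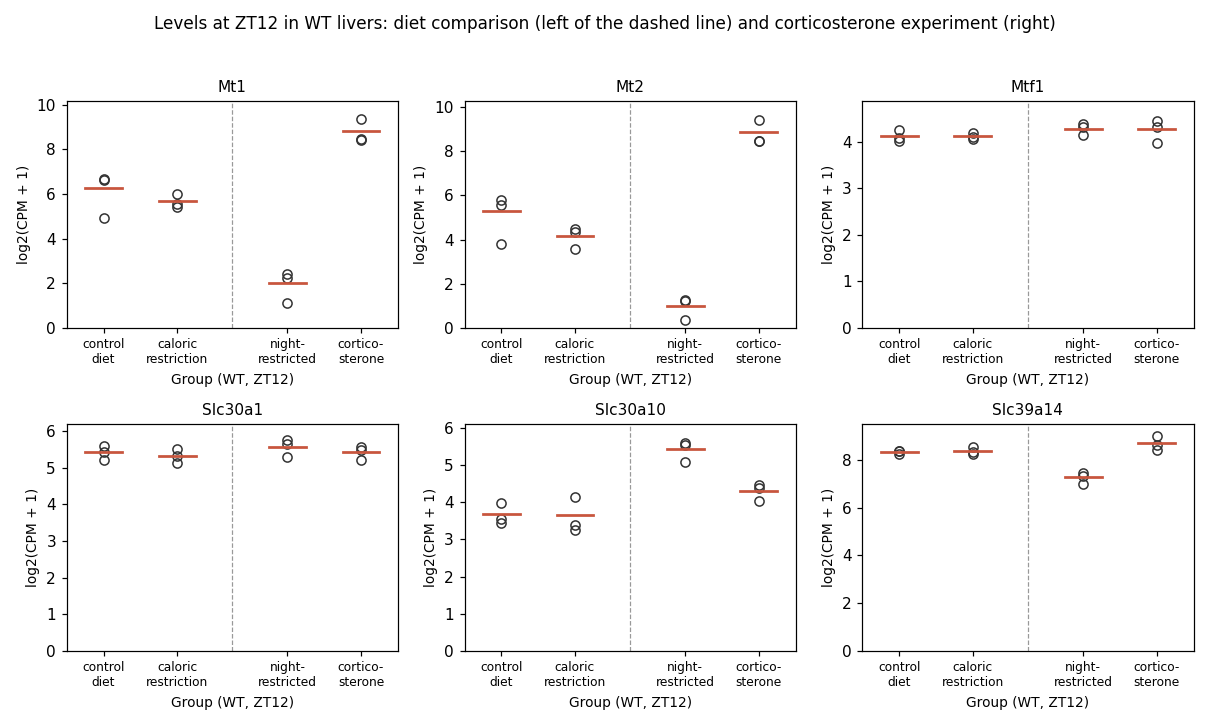
Levels of the 6 genes in WT livers at ZT12, as log2(CPM + 1) on the vertical axis, for the diet comparison (left of the dashed line) and the corticosterone experiment (right), which come from tables normalized separately. Circles are single livers and bars the group means; with corticosterone Mt1, Mt2 and Slc39a14 lie above and Slc30a10 below their controls, with ratios of means of 147, 472, 2.74 and 2.25.

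Set side by side, the number of the 6 genes whose livers did not overlap between the groups was 0 for the diet comparison, where 59% of all genes tested were apart, and 4 for corticosterone (3 higher, 1 lower), where 32.9% were. For GR loss on caloric restriction it was 2 at ZT0 (20.4% of all genes), 0 at ZT4 (21.4%), 2 at ZT8 (24.7%), 4 at ZT12 (36.9%), 5 at ZT16 (25%) and 1 at ZT20 (26.9%). On control diet it was 2 of the 5 genes that passed the filter on low counts at ZT0 (22.5%; Mt2 did not pass), and of 6 genes 1 at ZT4 (16%), 0 at ZT8 (7.43%), 0 at ZT12 (8.44%), 4 at ZT16 (16.8%) and 2 at ZT20 (11.9%). In each of these the GRLKO livers were the lower ones. With library size as the only scaling the numbers on caloric restriction were 0 (22.8% of all genes), 0 (21.4%), 1 (24.6%), 3 (39.6%), 4 (26%) and 0 (26.6%) from ZT0 to ZT20. On control diet they were 2 of 5 (20.2%), 0 (20.2%), 0 (8.08%), 0 (11.3%), 4 (15.8%) and 0 (11.9%), and the diet comparison (0, 60.2%) and corticosterone (4, 34.1%) kept theirs. Chance alone sets 10% of genes apart with 3 livers against 3, 5.71% with 4 against 3 and 2.86% with 4 against 4. Because these values chose the genes, nothing is read from the counts.

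Levels of Mt1 and Mt2 followed each other across the livers of each genotype and diet. Pearson's r of log2 CPM was 0.933 in the 18 WT livers on caloric restriction (Spearman's rho 0.886, r = 0.899 without the 2 livers farthest from the median of Mt1) and 0.715 in the 18 GRLKO livers (rho 0.515, r = 0.551 without 2). On control diet r was 0.742 in 22 WT livers (rho 0.650, r = 0.604 without 2) and 0.837 in 20 GRLKO livers (rho 0.773, r = 0.806 without 2). Slc30a10 ran against Slc39a14, with r = -0.680 in WT on caloric restriction (n = 18, rho -0.626, r = -0.702 without 2) and r = -0.483 in GRLKO (n = 18, rho -0.341, r = -0.301 without 2). For these 2 transporters on control diet r was -0.792 in WT (n = 22, rho -0.864, r = -0.782 without 2) and -0.673 in GRLKO (n = 20, rho -0.713, r = -0.703 without 2). Mt1 and its activator Mtf1 ran weakly to moderately against each other, with r = -0.147 in WT on caloric restriction (n = 18, rho -0.119, r = -0.0520 without 2) and r = -0.644 in GRLKO (n = 18, rho -0.552, r = -0.667 without 2). On control diet that pair gave r = -0.418 in WT (n = 22, rho -0.407, r = -0.395 without 2) and r = -0.290 in GRLKO (n = 20, rho -0.386, r = -0.222 without 2). These livers share their time points and library batches, all 15 pairs of the 6 genes were computed, and no p is given.

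Among 12624 genes measured on both diets, those whose levels were most like the mean of Mt1 and Mt2 were Mllt6, Chic2, Ppp1r15a (a regulator of the phosphatase that ends the stress block on translation), Map1lc3b (an autophagosome protein), Erf, Hmga1, Inpp4a and Pros1. Each correlation pooled both genotypes and all 6 time points of a diet, so that shared differences between genotypes or times enter it. The lower of the r on caloric restriction (36 livers) and on control diet (42 livers) ran from 0.623 for Mllt6 to 0.574 for Pros1. Their rank correlations on caloric restriction were lower for some, from rho 0.361 for Chic2, 0.472 for Ppp1r15a and 0.477 for Pros1 to 0.668 for Map1lc3b. On control diet rho ran from 0.585 to 0.718. Slc30a10 was most like Stra6l, Trim2, Spsb3 and Med8 (0.827 to 0.793, rho 0.861 to 0.896 over the 36 livers and 0.818 to 0.854 over the 42). The genes nearest to Slc39a14 were Arhgef26, Hs6st1, Pptc7 and Map3k5 (0.841 to 0.809, rho 0.658 to 0.768 and 0.742 to 0.819).

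Promoter sequence is shown for Mt2 and Slc30a10, the 2 genes with the most matches to the metal response element among the 5 of 6 for which the table of RefSeq promoters used here (GRCm38.p6) held an entry, to set these matches beside values that moved in opposite directions with corticosterone. The letters TGCNCNC are looser than the core of that element, which can be written as TGCACNC in its adenine form and as TGCGCNC in its guanine form. TGCNCNC, searched on both strands in the 250 bases before each start, occurred at least once in 44.4% of 32851 promoters, at least 3 times in 4.65% and at least 5 times in 0.344%. Mt2 held it 5 times, Slc30a10 3 times (1 pair of copies lies on opposite strands and overlaps, 1 base apart), Mt1 and Slc30a1 once each, and Mtf1 not at all. Of the stricter core Mt2 and Slc30a10 held 3 copies each, as 1.26% of promoters did at least, Mt1 and Slc30a1 1 each (21.4% at least) and Mtf1 none. The glucocorticoid receptor motif AGAACA was found in 16.1% of promoters and among the 5 genes in Mtf1 alone, and the STAT motif TTCNNNGAA in 7.02% and in none of the 5. A match describes letters, not a bound site, and the absence of a motif from this window says nothing of the factor. The sequences of Mt1, Mtf1 and Slc30a1 are not shown because annotated transcripts or genes overlap these windows. Of 250 bases, 206 lay within them for Mt1, 250 for Mtf1 and 84 for Slc30a1. Their counts are therefore not from windows like those of Mt2 and Slc30a10. The order of the 5 genes describes these windows alone and cannot rank their promoters. Capitals mark the copies of TGCNCNC or its reverse complement in the windows of Mt2 (chr8:94172368-94172617, GRCm38.p6, plus strand) and Slc30a10 (chr1:185454598-185454847, GRCm38.p6, plus strand), printed 5′ to 3′.
Mt2: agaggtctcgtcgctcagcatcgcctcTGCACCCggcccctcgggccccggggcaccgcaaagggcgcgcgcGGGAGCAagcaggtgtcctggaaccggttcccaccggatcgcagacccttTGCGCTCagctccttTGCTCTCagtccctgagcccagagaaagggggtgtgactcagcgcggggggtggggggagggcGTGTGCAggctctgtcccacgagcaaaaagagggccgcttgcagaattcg
Slc30a10: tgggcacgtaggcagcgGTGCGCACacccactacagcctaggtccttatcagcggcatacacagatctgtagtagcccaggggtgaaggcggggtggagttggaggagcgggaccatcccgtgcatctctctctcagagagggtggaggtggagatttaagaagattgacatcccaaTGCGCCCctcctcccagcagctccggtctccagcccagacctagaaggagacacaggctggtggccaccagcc

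Beyond the 6 genes, 23 other metallothionein and zinc transporter genes were listed, and those that passed the filter were tested with all genes in each comparison. In the diet comparison 13062 genes were tested and 47.1% called (adjusted p under 0.05, 3073 higher and 3082 lower on caloric restriction), and 19 of the 23 were tested, of which 7 rose and 6 fell (median log2 difference -0.12, against 0.00 over all genes). Slc39a10, an importer known to be repressed by MTF1, rose by 1.97 on the log2 scale (SE 0.18, edgeR quasi-likelihood test with Benjamini-Hochberg adjusted p = 0.000332, higher in 3 of 3 livers), from a mean of 1.94 to 7.59 CPM. Slc39a5 (2.19), Slc30a8 (2.02), Slc39a6 (1.92), Slc39a2 (1.69), Slc39a8 (0.65) and Slc30a4 (0.30) also rose, and the lowest of these, Slc30a8, stood at 0.0784 and 0.326 CPM. Slc39a13 fell by 0.90 (SE 0.18, edgeR quasi-likelihood test with Benjamini-Hochberg adjusted p = 0.00572, lower in 3 of 3 livers), followed by Slc39a4 (-0.69), Slc39a11 (-0.54), Slc30a9 (-0.30), Slc30a7 (-0.25) and Slc39a1 (-0.24). Calls of Slc30a4, Slc30a7, Slc30a9, Slc39a1, Slc39a4 and Slc30a8 were lost without 1 or more single livers (Slc30a8 without replicate 3 on caloric restriction). With the ZT12 WT livers of the time series, where diet and library batch cannot be told apart, the Slc30a7 log2 fold change, tested, diet effect, WT, ZT12, was 0.066 and the Slc30a9 log2 fold change, tested, diet effect, WT, ZT12, was 0.14, both of the other sign, and the call of Slc39a2 was lost. The number called ranged from 8 (without control replicate 1, or without replicate 2 or 3 on caloric restriction) to 14 when single livers were left out. With library size as the only scaling, the median of all genes shifted to -0.12 and 35.3% of calls were higher, against 49.9%.

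For GR loss on caloric restriction at ZT12, where 15.3% of 11759 genes were called (873 higher and 922 lower in GRLKO), 1 of 16 fell (median 0.02, all genes 0.00), namely Slc30a9 by 0.32 (SE 0.08, edgeR quasi-likelihood test with Benjamini-Hochberg adjusted p = 0.0368, lower in 3 of 3 livers), and it was not called when any 1 of the 6 libraries was left out, nor by DESeq2, with library size as the only scaling, with no filter or with the replicate number as a block. One fit of the diet's libraries called 4 of these genes. On control diet at ZT12, with 2.08% of 11428 genes called (93 higher, 145 lower), 1 of 16 fell (median -0.03, all genes 0.00), the importer Slc39a4 by 0.84 (SE 0.17, edgeR quasi-likelihood test with Benjamini-Hochberg adjusted p = 0.0393, lower in 4 of 4 livers), a call lost without WT replicate 2, 3 or 4 or GRLKO replicate 1, 2 or 4, with the replicate number as a block and in one fit of the diet's libraries. For the difference between the diets in the effect of GR loss, 1.01% of 12225 genes were called (60 higher, 63 lower) and 0 of 17 zinc genes by edgeR, with 2 at an unadjusted p under 0.05 and 0 by DESeq2 (median -0.02, all genes 0.00). Library size as the only scaling raised the share of calls that were higher from 48.6% to 77.2% on caloric restriction at ZT12, with the median of all genes shifted by 0.16, from 39.1% to 64.6% on control diet and from 48.8% to 62.9% for the difference.

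Over the 6 time points, GR loss changed 32.9% of 13041 genes on caloric restriction (2039 higher, 2258 lower) and 18.6% of 12834 on control diet (1286 higher, 1103 lower), and 3 zinc genes rose and 2 fell of 17 on the former (median 0.02, all genes 0.00) and 2 rose and 2 fell of 17 on the latter (median -0.07, all genes 0.00). Slc39a6 fell by 0.46 on caloric restriction (SE 0.09, edgeR quasi-likelihood test with Benjamini-Hochberg adjusted p = 0.000217, lower at 6 of 6 time points) and by 0.55 on control diet (SE 0.13, edgeR quasi-likelihood test with Benjamini-Hochberg adjusted p = 0.00266, lower at 6 of 6), the latter call being lost without replicate 2 (-0.44). Slc39a7 fell on both diets (-0.15 and -0.18) and Slc39a1 (0.10 and 0.08) and Slc39a9 (0.14 and 0.13) rose on both, with Slc39a11 (0.16) on caloric restriction, and each of these calls was lost without some replicate number, those of Slc39a7 also with library size as the only scaling. On caloric restriction these were replicate 1 (-0.18) or 3 (-0.13) for Slc39a7, replicate 1 (0.14) or 3 (0.15) for Slc39a11, replicate 2 (0.11) for Slc39a9 and replicate 3 (0.08) for Slc39a1. On control diet these were replicate 1 (-0.17) for Slc39a7, replicate 2 (0.11) for Slc39a9 and replicate 1 (0.06) or 2 (0.07) for Slc39a1. The share of higher calls went from 47.5% to 75.3% on caloric restriction and from 53.8% to 81.0% on control diet with library size as the only scaling.

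With corticosterone 8.11% of 11523 genes were called (515 higher, 420 lower) and 1 of 16 zinc genes, Slc39a1, rose, by 0.35 (SE 0.08, edgeR quasi-likelihood test with Benjamini-Hochberg adjusted p = 0.0421, higher in 3 of 3 livers; median of the list -0.02, all genes -0.01). The call was lost without any 1 of the 3 controls or without corticosterone replicate 1 or 3, with library size as the only scaling, with no filter and with the replicate number as a block. Slc39a10 was 5.61 CPM in controls and 3.10 CPM with corticosterone and did not pass (log2 difference -0.86, SE 0.22, edgeR quasi-likelihood test with Benjamini-Hochberg adjusted p = 0.0593, lower in 3 of 3 livers). The number of genes called in all fell to 206 without control replicate 2, and library size as the only scaling moved the median of all genes by -0.10 and the share of higher calls from 55.1% to 38.8%.

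Daily rhythm, tested by JTK_CYCLE at a period of 24 h, was called for 10 of 20 of these zinc genes in WT on caloric restriction, where 21.7% of all genes were called. The counts were 6 of 21 in GRLKO on caloric restriction (19.9% of all genes), 4 of 21 in WT on control diet (27.3%) and 3 of 21 in GRLKO on control diet (22.8%). Slc39a8 and Slc39a10 were called in all 4 groups. Whether these counts differ between genotypes was not tested, and with 1 replicate number left out at most 2, 1, 3 and 2 of them were called.

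Genes of neighbouring pathways were followed in lists, with the share of all genes called in brackets. Of 4 genes linked to MTF1 in liver, 2 rose with caloric restriction (Slc39a10 and Ndrg1) and Selenow fell (47.1% of all genes; list median 0.24). For GR loss at ZT12 on either diet, for the difference between diets and for corticosterone edgeR called 0 (2, 0, 1 and 2 at an unadjusted p under 0.05; DESeq2 called Slc39a10 with corticosterone). Over the 6 time points Ndrg1 alone fell on caloric restriction (32.9%) and 0 were called on control diet (18.6%). Of 10 genes of copper handling, 1 rose and 2 fell with diet (47.1%; list median -0.09, all genes 0.00), a share under that of all genes. With GR loss at ZT12, 1 rose and 1 fell on caloric restriction (15.3%; median 0.16) and 1 fell on control diet (2.08%; 0.00), 1 fell with corticosterone (8.11%; 0.05) and 0 differed in the effect of GR loss between diets (1.01%; 0.08). Over the time points 3 rose and 1 fell on caloric restriction (32.9%; 0.04) and 4 rose and 1 fell on control diet (18.6%; 0.06). The largest changes with diet were those of Atp7b (-1.15), Atp7a (0.72, lost without any 1 liver) and Ccs (-0.53, lost with the time-series livers). The ferroxidase Cp fell with GR loss at ZT12 (-0.91, and -0.49 with the call lost with the replicate number as a block) and over the time points (-0.64 and -0.39) on the 2 diets. Over the time points Atp7b rose on both diets (0.36 and 0.20), with Sod1 (0.18) on caloric restriction and Cox17 (0.17) on control diet. Atp7b, the copper pump of the secretory pathway, also fell with corticosterone (-0.50, lost without control replicate 1 or 2 or corticosterone replicate 1 or 3) and rose with GR loss on caloric restriction at ZT12 (1.16, SE 0.17, edgeR quasi-likelihood test with Benjamini-Hochberg adjusted p = 0.00639, higher in 3 of 3 livers).

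Interleukin-6 and acute phase genes (18) moved with corticosterone, like Mt1, Mt2 and Slc39a14: 16 rose and 0 fell (median 1.24; 8.11% of all genes called), led by Lcn2, a secreted iron-scavenging protein (6.97, SE 0.42, edgeR quasi-likelihood test with Benjamini-Hochberg adjusted p = 0.000916, higher in 3 of 3 livers), Saa2 (6.15) and Saa1 (5.20). GR loss at ZT12 lowered 9 and raised 1 on caloric restriction (median -0.59; 15.3%) and lowered 3 on control diet (-0.41; 2.08%). Diet raised 8 and lowered 2 (0.43; 47.1%), a share close to that of all genes, 0 differed between the diets (-0.05; 1.01%), and over the time points 9 and 12 fell (medians -0.28 and -0.21; 32.9% and 18.6%). The interleukin-1 receptor gene Il1r1 changed most at ZT12 on both diets (-3.34 and -2.51), followed by Lcn2 (-2.15, lost without WT replicate 1 or 3 or GRLKO replicate 2 or 3) and Orm2 (1.45) on caloric restriction, both lost in one fit of the diet's libraries, and by Cebpd (-1.13) and Hp (-0.47) on control diet. Those 2 calls were lost with library size as the only scaling, with the replicate number as a block, and without most single livers (all but WT replicate 2 for Cebpd, all but WT replicate 1 and GRLKO replicate 3 for Hp). With diet these were Saa1 (-2.23), Il6ra (1.60) and Saa2 (-1.599), with both Saa calls lost with the time-series livers, and over the time points Lcn2 (-2.20 and -1.69), Il1r1 (-1.51 and -1.01), and Il6ra (-0.94) on caloric restriction and Saa1 (-0.97) on control diet. Of 8 known GR targets, 8 rose with diet (median 2.01; 47.1% of all genes), 6 fell with GR loss at ZT12 on each diet (-1.24 and -1.13; 15.3% and 2.08%), 7 rose with corticosterone (1.93; 8.11%), and 6 and 5 fell over the time points (-0.65 and -0.45; 32.9% and 18.6%). In the difference between the diets 1 was called (-0.26; 1.01%), Klf9, a call lost with library size as the only scaling, with the replicate number as a block and without any 1 library but WT replicate 4 on control diet. Those that changed most were Tat (2.96), Dusp1 (2.84) and Fkbp5 (2.36) with diet (with the time-series livers the Dusp1 log2 fold change, tested, diet effect, WT, ZT12, was -0.56, of the other sign), Zbtb16, Fkbp5 and Tsc22d3 with GR loss at ZT12 (-3.62, -2.84 and -1.86 on caloric restriction, -3.86, -2.29 and -1.51 on control diet), Zbtb16 (2.92, lost without control replicate 2), Fkbp5 and Dusp1 (2.396) with corticosterone, and Zbtb16, Fkbp5 and Per1 over the time points (-2.04, -1.65 and -1.11, and -1.77, -1.11 and -0.82). Fkbp5, the GR co-chaperone, fell by 2.84 on caloric restriction at ZT12 (SE 0.15, edgeR quasi-likelihood test with Benjamini-Hochberg adjusted p = 0.000144, lower in 3 of 3 livers) and rose by 2.63 with corticosterone (SE 0.35, edgeR quasi-likelihood test with Benjamini-Hochberg adjusted p = 0.00797, higher in 3 of 3 livers).

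Markers of other cell types moved with GR loss on caloric restriction at ZT12, beside the lower Mt1, Mt2, Slc30a1 and Slc39a14. Of 8 Kupffer and myeloid markers 5 were called higher in GRLKO (15.3% of all genes called), with summed levels of 48.6, 78.4 and 57.0 CPM in WT and 134, 109.7 and 139 CPM in GRLKO, Clec4f the most abundant and none at 0. Of 7 hepatocyte markers 4 were lower, with sums of 156935, 155951 and 161235 CPM in WT and 118669, 125593 and 109263 CPM in GRLKO. The ratio of the mean sums of the hepatocyte markers, WT over GRLKO, was 1.34, beside ratios of 1.35 for Slc30a1, 1.51 for Slc39a14, 9.03 for Mt1 and 17.2 for Mt2. Adipocyte sums were also lower in every GRLKO liver (means 107.7 CPM in WT and 80.9 CPM in GRLKO, WT over GRLKO 1.33). Cholangiocyte sums were higher in every GRLKO liver (means 28.8 and 31.8 CPM, 1.10 times those of WT). The most abundant marker was Pnpla2 in the adipocyte list and Spp1 in the cholangiocyte list, each in 90 of 90 libraries. Of 3 cholangiocyte markers that passed the filter, 0 were called higher and 1 lower. The part of these marker shifts in the lower levels was not tested. On control diet at ZT12 0 of 8 Kupffer markers were called by edgeR and 3 of 7 hepatocyte markers were lower (2.08% of all genes called), and with corticosterone 2 of 8 Kupffer markers and 1 of 7 hepatocyte markers were higher (8.11%).

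Summed marker levels also differed between the genotypes at other times, beside the lower levels of the 6 genes there. Lymphocyte markers, Ighm the most abundant of them, were higher in every GRLKO liver at ZT0, ZT4, ZT12, ZT16 and ZT20 on caloric restriction (mean sums 3.23, 2.17, 2.82, 1.93 and 3.41 times those of WT) and at ZT0, ZT4, ZT8, ZT12 and ZT16 on control diet (3.78, 3.20, 2.58, 4.52 and 3.70 times). Hepatocyte markers were lower in every GRLKO liver at ZT0 (WT over GRLKO 1.13, with overlap when library size was the only scaling), ZT8 (1.15), ZT12 and ZT16 (1.177) on caloric restriction and at ZT4 (1.28) and ZT16 (1.16) on control diet. Endothelial markers were higher in GRLKO at ZT4, ZT8 and ZT12 on caloric restriction (1.37, 1.24 and 1.28 times), and adipocyte markers at ZT0, ZT4, ZT8 and ZT20 on control diet (1.497, 1.513, 1.355 and 1.246 times), each without overlap. Endothelial markers were lower in GRLKO at ZT16 on control diet (WT over GRLKO 1.13), apart with TMM and not with library size as the only scaling. At ZT12 on caloric restriction adipocyte markers were lower in every GRLKO liver (WT over GRLKO 1.33). Cholangiocyte markers were lower in GRLKO at ZT4 on control diet (WT over GRLKO 1.34), where Slc39a14 was also apart. They were higher in every GRLKO liver at ZT12 on caloric restriction (1.10 times). In the diet comparison hepatocyte (1.85 times), endothelial (1.46 times) and adipocyte (1.24 times) sums were higher and lymphocyte sums lower (0.397 times) in every liver on caloric restriction. With corticosterone the Kupffer sum was 1.42 times that of controls, apart with TMM and not with library size as the only scaling. In 90 of 90 libraries Pnpla2 was the most abundant adipocyte marker and Spp1 the most abundant cholangiocyte marker, so that the sums of these 2 lists can follow a single gene. The sums of all lists were not tested, and their part in the levels of the 6 genes is not known.

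Other marker lists gave these counts, out of the markers that passed the filter, to be read beside 47.1% of all genes called with diet, 15.3% with GR loss on caloric restriction at ZT12, 8.11% with corticosterone, and 32.9% and 18.6% over the time points on caloric restriction and control diet. Of 6 endothelial markers 4 were higher with diet, 1 with GR loss at ZT12 and 6 over the time points on caloric restriction, and 1 was lower with corticosterone. Of 6 stellate markers 1 was higher and 2 lower with diet, 1 was lower with corticosterone and 2 were higher over the time points on caloric restriction. Cholangiocyte markers were higher in 2 of 4 with diet, lower in 1 of 3 with GR loss on caloric restriction at ZT12, lower in 1 of 4 with corticosterone and higher in 1 of 4 over the time points on caloric restriction. Lymphocyte markers were lower in 2 of 4 with diet, higher in 1 of 1 with GR loss on caloric restriction at ZT12, and higher in 2 of 4 and 1 of 4 over the time points, with summed levels of 0.879 to 109.98 CPM. Of 6 adipocyte markers (Pnpla2 the most abundant) 2 passed the filter; 1 was higher and 1 lower with diet, 1 lower with GR loss on caloric restriction at ZT12, and 1 higher with corticosterone and over the time points on each diet. With diet 4 of 7 hepatocyte markers were higher and 1 of 8 Kupffer markers lower, and over the time points 4 of 7 hepatocyte markers were lower on each diet. For the difference between the diets edgeR called 0 of the markers that passed the filter. Of 8 exocrine pancreas markers none passed it for GR loss at ZT12 on either diet or for corticosterone, so that none was tested there. Their sum nevertheless reached 784 CPM in replicate 3 of WT on caloric restriction at ZT12. At most 2 passed elsewhere, with 0 called. Neutrophil markers summed to at most 3.76 CPM in any library, and of 5 at most 2 passed the filter in a comparison.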

How the data were processed

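Gene-level estimated counts were used as deposited; the authors made them with FastQC 0.11.9, Salmon 1.8.0, MultiQC 1.12 and tximport 1.18.0 (mm10, DESeq2 1.30), and the transcript annotation is not given in the sources used here. Each replicate was the liver of a single mouse. Estimated counts were rounded to whole numbers, and 6 columns of variance-stabilized values were not used. Of 27654 gene IDs, 27244 had a symbol, and the 410 without held 0.107% of the counts. Over 102 pairs of libraries within groups the lowest chi-square per degree of freedom was 10.4 and the median 22.5, so that no library was a copy of another of its own group; pairs between groups were not compared.

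CPM and tests were computed separately in each table with edgeR 4.0.16: TMM scaling, filterByExpr with a minimum count of 10, quasi-likelihood F tests and Benjamini-Hochberg adjustment at 0.05, with a prior count of 2 for log2 CPM. DESeq2 1.42.0, limma 3.58.1 and scaling by library size alone were alternatives. Rhythm was tested by JTK_CYCLE at 24 h with Bonferroni adjustment over 6 phase offsets, then Benjamini-Hochberg. R 4.3.3, Python 3.11.15 and matplotlib 3.10.9 were used. Each script that tests many genes was tested on simulated data first.

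The 6 genes and the lists were chosen with earlier results of these data known. The lists were other zinc genes, genes linked to MTF1, copper handling, interleukin-6 and acute phase genes, GR targets, and markers of hepatocytes, Kupffer, endothelial, stellate, cholangiocyte, neutrophil, lymphocyte, exocrine pancreas and adipocyte cells. Named in the text, beside the 6 genes and Nr3c1, were the other zinc genes called, the genes linked to MTF1, the 3 called genes with the largest absolute log2 fold change in each of the copper, interleukin-6 and GR target lists, and the genes most like Mt1 and Mt2 (8), Slc30a10 (4) and Slc39a14 (4) by the lower of the 2 Pearson r on the 2 diets.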

Additional observations from a re-analysis of the deposited data

Results flagged for a closer look

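In groups of 4 livers, a value was noted where its gap to the nearest liver passed Dixon's 95% limit for the share of the range. Of 42 combinations of gene and group tested, 3 met this, where chance gives about 1 in 20, so that these livers are named as a description and nothing is read from them. Mt1 was highest in replicate 4 of WT on control diet at ZT8, at 9.96 CPM. Mt1 was also highest in replicate 4 of GRLKO at that time and diet, at 13.4 CPM. Mtf1 was lowest in replicate 2 of GRLKO at that time and diet, at 13.5 CPM.

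A difference between groups was noted for Klf9, a GR target. The effect of GR loss at ZT12 was lower on caloric restriction than on control diet by a log2 difference of -0.72 (SE 0.15, edgeR quasi-likelihood test with Benjamini-Hochberg adjusted p = 0.0395), with 3 of 3 GRLKO livers lower on caloric restriction (means 159.8 and 67.3 CPM) and 4 of 4 on control diet (121 and 84.2 CPM). The call was lost with library size as the only scaling, with the replicate number as a block and without any 1 library but WT replicate 4 on control diet.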

How the results depend on the processing

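Of the counts of genes called, 52 stayed within 1.5 times under an alternative and 48 moved, and of the counts of other zinc genes called 52 stayed and 48 moved. Of the log2 fold changes of the 6 genes, 176 stayed within 1 SD and 10 moved under other alternatives, and 280 stayed and 2 moved without single libraries or replicate numbers, where 1 SD is a limit that few such values can pass; of their mean levels with library size as the only scaling 160 stayed and 8 moved. Without replicate 2 of WT on caloric restriction at ZT8, left out after seeing the data, the mean of Mt1 went from 50.9 to 17.9 CPM and that of Mt2 from 12.3 to 2.94 CPM. Of the named genes' values 990 kept their direction and side of the threshold, 123 lost the call, 5 gained one and 4 reversed, all in the diet effect at ZT12 with time-series livers: log2 fold changes of Slc30a7 0.066, Slc30a9 0.14, Dusp1 -0.56 and Nr3c1 0.25. The cause was not tested.

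The replicate numbers did not pair the livers: in 0 of 14 pairs of groups was every correlation of deviations over 0.1. With the replicate number as a block (replicate block), genes called were 889 for GR loss on caloric restriction at ZT12, 101 on control diet, 534 for corticosterone and 5 for the GR loss by diet interaction, and other zinc genes called were 0, 0, 0 and 0. With DESeq2, genes called were 564 for GR loss on control diet at ZT12 and 467 for the interaction, and other zinc genes called were 2 for corticosterone. One fit of the diet's libraries called 2805 genes for GR loss on caloric restriction at ZT12 and 537 on control diet, with 4 and 0 other zinc genes. Library size only gave 2 other zinc genes for GR loss on caloric restriction, 2 on control diet and 0 for corticosterone, and no filter gave 0 for GR loss on caloric restriction and 0 for corticosterone. The limma F test of sine and cosine called 6827 genes as rhythmic in WT and 6365 in GRLKO on caloric restriction, and 5 other zinc genes in GRLKO on control diet. The cause was not tested.

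Leaving out 1 library at a time gave, for genes called and then other zinc genes called, 899 to 1329 and 0 for GR loss on caloric restriction at ZT12, 137 to 199 and 0 to 1 on control diet, 206 to 1008 and 0 to 1 for corticosterone, and 49 to 148 and 0 to 1 for the interaction. For the diet effect other zinc genes called were 8 to 14. Leaving out 1 replicate number gave 2807 to 3168 and 2 to 5 for the mean of 6 time points on caloric restriction, and 1487 to 2206 and 1 to 5 on control diet. Daily rhythm gave 392 to 749 and 0 to 2 in WT and 308 to 401 and 0 to 1 in GRLKO on caloric restriction, and 2375 to 3723 and 1 to 3 in WT and 1194 to 3608 and 0 to 2 in GRLKO on control diet. These fits hold fewer samples, and the cause was not tested further.

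Limits of the data are groups of 3 or 4 livers, bulk tissue with hepatocytes and other cells together, library batch and diet that cannot be told apart in the time series, and few reads of Mt2, which held 0 counts in 1 library. RNA levels were measured, and zinc, manganese and protein were not.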
